A study of Homo sapiens with 15 samples.

Results

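The genes described are 8 transcription factors of blood stem and progenitor cells, picked by symbol from the 19604 protein-coding genes kept from each of the 2 expression tables: GATA2, TAL1, LYL1, LMO2, ERG, FLI1, GFI1 and GFI1B. All 8 have a row in both tables. GFI1B is listed at 0 in all 15 libraries, and the other 7 averaged 1 FPKM or more in each experiment, the minimum for testing. FPKM counts sequenced fragments relative to transcript length and sequencing depth, and is the unit in which the tables were read. RNA-seq of total RNA was done on OCI-AML5, an established human acute myeloid leukaemia line, described by the series title as leukaemia with mutant RUNX1 (mtRUNX1) and grown with GM-CSF, 3 libraries per group. In the drug experiment cells received 1000 nM ARV-825 for 4 h, received 1000 nM OTX015 for 4 h, or were control cells with no treatment. In the shRNA experiment they carried RUNX1 shRNA or a non-targeting shRNA (shNT) for 72 h. OTX015 inhibits BET bromodomain proteins, and ARV-825 is a BET degrader built from that inhibitor and a cereblon ligand. The labels do not say how many shRNA sequences were used.

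GATA2, TAL1, LYL1, LMO2, ERG and FLI1 form, with RUNX1, a set of factors known as the heptad, which bind together at regulatory elements of haematopoietic stem and progenitor cells. Several members bind the regulatory elements of one another. TAL1 and LYL1 are related helix-loop-helix proteins that pair with E proteins at E-box motifs, LMO2 is a LIM protein that bridges them to GATA factors, and ERG and FLI1 are closely related ETS proteins. GFI1 and GFI1B are related zinc finger repressors that recruit the demethylase KDM1A, and GFI1B acts mainly in the erythroid and megakaryocyte lineages.

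Promoter windows of 300 bases (250 before and 50 after an annotated start, RefSeq, GRCh38.p14) were found for 6 members, 14 windows in all. LMO2 and FLI1 are named only. The windows were searched on both strands for 5 motifs. GATAAG stood for the site of GATA factors. CAGNTG is the E-box of helix-loop-helix proteins. For ETS factors the letters were GGAAGT. For RUNX factors they were TGTGGT, and for GFI1 the core AAATCA. No matches overlap in the windows printed here. The 5 windows that follow are shown because they hold a GATA, ETS or RUNX match, given in capitals; so do an ERG window that overlaps the one printed and a window of GFI1B, the gene listed at 0 (the reverse strand of GATAAG reads CTTATC).
TAL1, upstream start, chr1:47232286-47232585, minus strand: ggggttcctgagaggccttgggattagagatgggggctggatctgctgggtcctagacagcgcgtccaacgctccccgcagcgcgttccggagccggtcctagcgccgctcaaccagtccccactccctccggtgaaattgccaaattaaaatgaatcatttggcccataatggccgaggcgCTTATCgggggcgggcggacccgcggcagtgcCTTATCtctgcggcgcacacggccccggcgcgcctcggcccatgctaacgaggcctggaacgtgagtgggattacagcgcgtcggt
TAL1, downstream start, chr1:47231666-47231965, minus strand: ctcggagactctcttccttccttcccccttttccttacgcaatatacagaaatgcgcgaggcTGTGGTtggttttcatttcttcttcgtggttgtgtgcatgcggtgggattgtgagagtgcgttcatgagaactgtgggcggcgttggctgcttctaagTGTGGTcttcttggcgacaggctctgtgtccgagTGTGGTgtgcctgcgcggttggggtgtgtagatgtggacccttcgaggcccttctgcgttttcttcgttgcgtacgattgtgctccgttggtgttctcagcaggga
LYL1, chr19:13102809-13103108, minus strand: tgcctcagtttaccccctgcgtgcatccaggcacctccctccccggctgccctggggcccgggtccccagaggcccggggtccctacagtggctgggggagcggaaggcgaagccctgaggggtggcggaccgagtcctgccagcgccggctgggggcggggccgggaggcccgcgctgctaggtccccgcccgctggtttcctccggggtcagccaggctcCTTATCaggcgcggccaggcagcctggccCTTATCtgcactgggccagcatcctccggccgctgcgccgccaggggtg
ERG, internal start, chr21:38498455-38498754, minus strand: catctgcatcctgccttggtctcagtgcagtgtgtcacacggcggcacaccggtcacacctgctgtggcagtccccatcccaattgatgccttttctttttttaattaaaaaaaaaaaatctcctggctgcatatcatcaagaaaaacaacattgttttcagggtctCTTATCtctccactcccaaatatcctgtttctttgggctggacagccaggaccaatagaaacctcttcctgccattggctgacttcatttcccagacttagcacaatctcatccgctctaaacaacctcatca
GFI1, middle of 3 starts, chr1:92486050-92486349, minus strand: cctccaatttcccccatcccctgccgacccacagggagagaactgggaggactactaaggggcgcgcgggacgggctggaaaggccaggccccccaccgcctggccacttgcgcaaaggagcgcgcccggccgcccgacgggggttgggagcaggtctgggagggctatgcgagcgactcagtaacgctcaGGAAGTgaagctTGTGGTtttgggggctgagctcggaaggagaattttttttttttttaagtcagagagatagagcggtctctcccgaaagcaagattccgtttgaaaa

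GATAAG was in 5 of the 14 member windows, against 6.36% of all 35116 windows of this length. The upstream TAL1 window and the LYL1 window held it 2 times each, and 0.356% of all windows hold it 2 or more times. In TAL1 the matches began 68 and 36 bases before the start, and in LYL1 they began 28 bases before and 1 base after it. A further match lay 83 bases before the internal ERG start, inside both of the overlapping ERG windows there. TGTGGT occurred 3 times in the downstream TAL1 window and once in the middle GFI1 window (13.1% of all windows hold it), and that GFI1 window also held GGAAGT (22.8%). CAGNTG was in 7 of the 14 windows, close to its 49.9% among all windows: 1 of GATA2, all 4 of ERG and both of GFI1B. The GATA2 window held it 3 times, and 17.7% of all windows hold it 2 or more times. AAATCA was in both GFI1B windows (13.2%). Neither GATA2 window and none of the 3 GFI1 windows held GATAAG. The expression values are per gene, so they do not say which start was used.

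Tests covered 10819 genes in the drug experiment and 10925 in the shRNA experiment. The authors normalized each experiment on its own, so levels in the 2 experiments stand side by side without a test. Libraries summed to between 554570 and 656995 FPKM, and the number of reads behind them is unknown. Medians over all genes were 1.8 to 1.92 FPKM with ARV-825, 2.06 to 2.1 with OTX015 and 2.15 to 2.2 in control. Of 12 myeloid markers 10 reached a mean of 1 FPKM in each experiment, led by LYZ. Their summed level was 788 to 826 FPKM with ARV-825, 687 to 698 with OTX015 and 1081 to 1150 in control. In the shRNA experiment it was 886 to 919 FPKM with RUNX1 shRNA and 1017 to 1047 with non-targeting shRNA. LYZ alone averaged 366 FPKM with RUNX1 shRNA and 542 FPKM with non-targeting shRNA, a larger difference than in the sum. The other myeloid markers moved both ways there. Of the markers of other cells, a mean of 1 FPKM in the drug libraries was reached by 1 of 12 for erythroid cells, 2 of 9 for megakaryocytes, 1 of 7 for mast cells and basophils, 0 of 8 for endothelium, 1 of 6 for B cells and 0 of 6 for T cells. Means with ARV-825, with OTX015 and in control were 3.19, 3.97 and 3.51 FPKM for erythroid EPOR. For megakaryocyte ITGA2B they were 2.90, 1.41 and 1.59 FPKM, and for GP1BA 1.87, 0.809 and 0.512 FPKM. For mast cell TPSAB1 they were 3.03, 2.04 and 1.54 FPKM, and for the B cell gene CD79A 5.35, 2.36 and 4.26 FPKM. The haemoglobin gene HBB, the platelet genes PF4 and GP9, and the endothelial genes EMCN and ROBO4 were at 0 in the drug libraries. Summed megakaryocyte markers were 5.5 to 6.86 FPKM with ARV-825, 2.53 to 3.17 with OTX015 and 2.74 to 3.33 in control, and endothelial markers 1.15 to 1.32 FPKM with ARV-825, 0.66 to 0.985 with OTX015 and 0.563 to 0.763 in control. Mast cell and basophil markers summed to 4.0 to 4.69 FPKM with ARV-825, 2.92 to 3.49 with OTX015 and 2.53 to 2.75 in control, and B cell markers to 4.68 to 6.42 FPKM with ARV-825, 2.15 to 2.76 with OTX015 and 4.08 to 4.9 in control. The erythroid and T cell sums overlapped between each drug and control. With RUNX1 shRNA the megakaryocyte sum was 3.42 to 5.2 FPKM, against 2.78 to 3.29 FPKM with non-targeting shRNA, and the mast cell and basophil sum was 0.95 to 1.06 FPKM, against 1.22 to 1.65 FPKM. The erythroid, endothelial, B and T cell sums overlapped there. Their part in the results was not tested. In bulk RNA, fewer expressing cells and less RNA per cell cannot be told apart.

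The levels of the 8 genes covered a wide range. In untreated control cells the order by mean FPKM was LYL1, FLI1, GFI1, LMO2, GATA2, ERG, TAL1 and GFI1B, and no neighbours in that order overlapped in their libraries. LYL1 took 39.8% to 42.9% of the summed FPKM of the members in control, FLI1 25.4% to 26.9%, GFI1 16.1% to 17.5% and LMO2 9.35% to 9.57%. TAL1 and ERG, at 1% to 1.1% and 1.39% to 1.54%, were minor members. LYL1 ranked between 345th and 397th of all genes in the control libraries, and TAL1 between 8503rd and 8554th. With non-targeting shRNA, ERG (16.9 ± 0.954 FPKM, SD, n = 3) stood above GATA2 (13.2 ± 0.367 FPKM), the reverse of their order in control (6.21 ± 0.28 and 15.5 ± 1.79 FPKM). The order of the other members was the same in both.

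**Figure D1:**
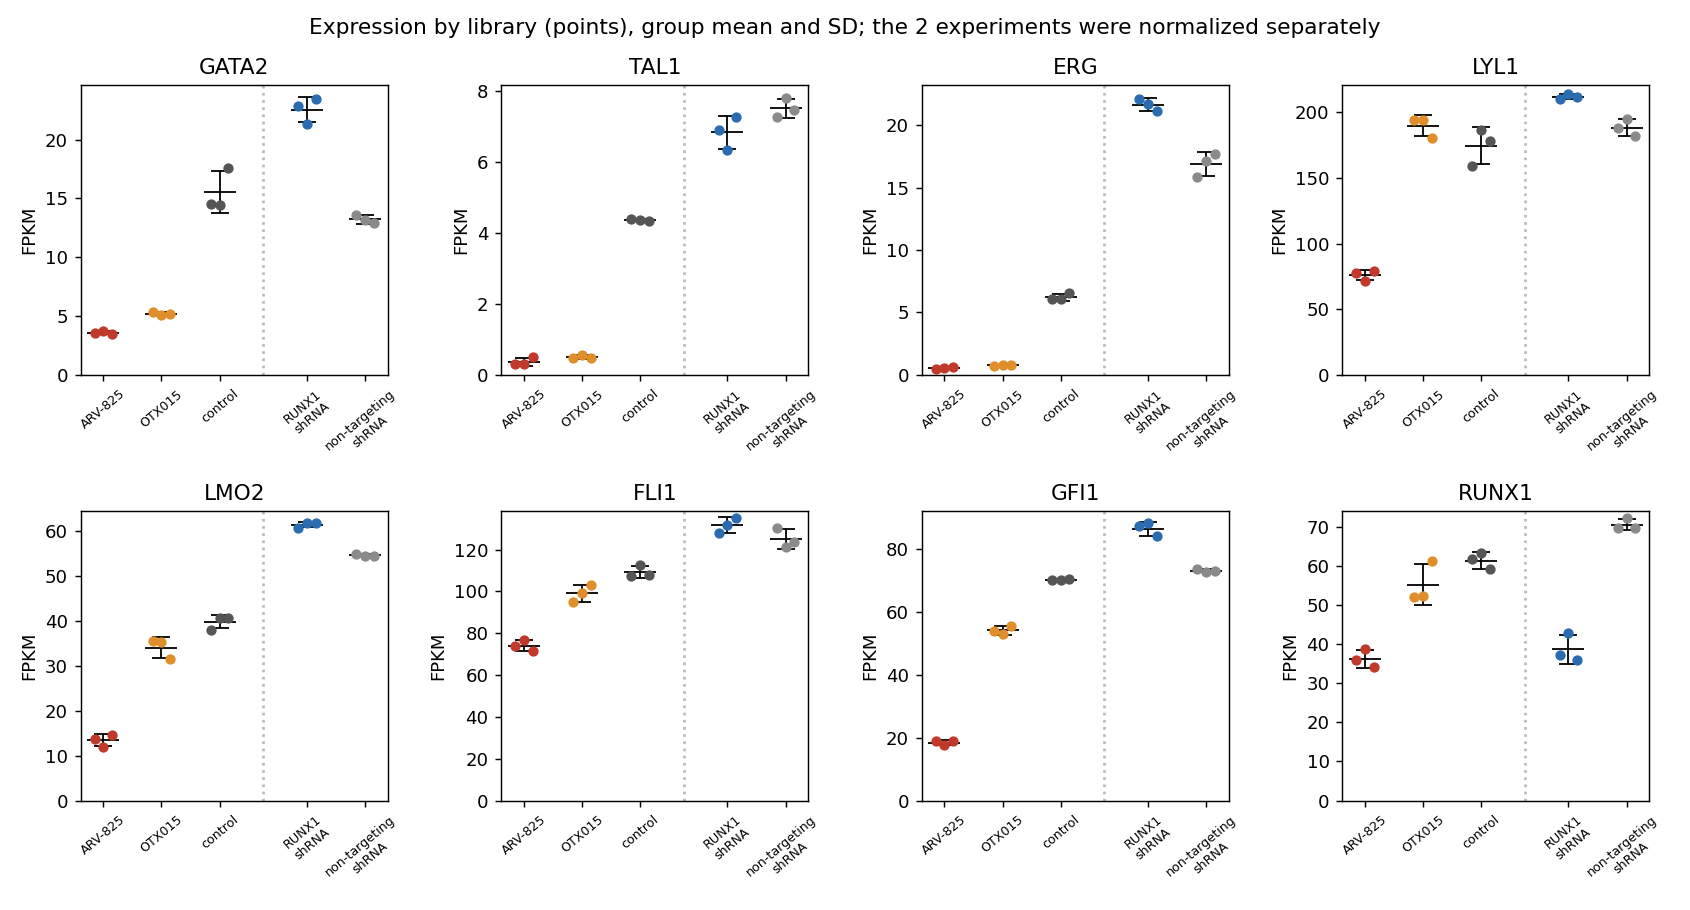
FPKM of the 7 detected members and RUNX1 in each library (points), with group mean and SD (n = 3), on linear axes from 0; the dotted line divides the separately normalized experiments. GATA2, TAL1 and ERG are low with both drugs, whereas LYL1, LMO2 and GFI1 are far lower with ARV-825 than with OTX015 or in control.

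ARV-825 lowered all 7 detected members within 4 h. TAL1 and ERG kept 8.34% and 8.91% of their control level, GATA2 23.1%, GFI1 26.3%, LMO2 33.7%, LYL1 43.6% and FLI1 67.7%. The summed FPKM of the members was 186 ± 3.51 with ARV-825 and 420 ± 18.3 in control (SD, n = 3 each). Limma with Benjamini-Hochberg adjustment over all tested genes called 7 of the 7 as lower at an adjusted p under 0.05. Among all genes tested 38.4% were called lower, 74.2% were called in either direction, and in 76.2% the groups did not overlap, as in all 7 members. A fall of at least 1 on the log2 scale was called for 6 members and for 8.16% of all genes. The median log2 change was -1.85 over the members and -0.01 over all tested genes. Values are scaled within each library, so in every comparison falls and rises are relative to the other genes. A median near 0 over all genes is partly set by that scaling and does not show that total RNA was unchanged.

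TAL1, the helix-loop-helix factor that specifies blood, had 0.307, 0.295 and 0.492 FPKM with ARV-825, against 4.4, 4.36 and 4.34 FPKM in control. All 3 treated libraries lay far under all 3 controls (log2 change -1.98 ± 0.082 SE, adjusted p = 7.38e-09, limma). ERG, an ETS factor needed to maintain stem cells, had 0.454, 0.555 and 0.652 FPKM with ARV-825 and 6.06, 6.04 and 6.54 FPKM in control. Again no library overlapped (-2.22 ± 0.08, adjusted p = 2.81e-09, limma). TAL1 and ERG passed the filter on low values only through their control libraries, and without that filter both were called as well. Changes are on the scale of log2(FPKM + 1), which understates those of genes near 1 FPKM: with 0.1 added instead of 1, TAL1 changed by -3.29 and ERG by -3.28.

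GATA2, a zinc finger factor of stem cell survival, had 3.58, 3.72 and 3.44 FPKM with ARV-825, against 14.5, 14.5 and 17.6 FPKM in control. The third control library was the highest, and the groups did not overlap (-1.85 ± 0.08, adjusted p = 9.4e-09, limma). GFI1 had 18.8, 17.6 and 18.9 FPKM with ARV-825 and 70.1, 70.1 and 70.3 FPKM in control. Its change was the largest of the members relative to its standard error (-1.87 ± 0.041, adjusted p = 2.08e-10, limma). LMO2 had 13.6, 12 and 14.6 FPKM with ARV-825 and 38.1, 40.7 and 40.7 FPKM in control (-1.51 ± 0.072, adjusted p = 1.89e-08, limma). LYL1 had 77.2, 71.6 and 79.3 FPKM with ARV-825 and 159, 187 and 178 FPKM in control (-1.19 ± 0.063, adjusted p = 3.92e-08, limma). In both genes the treated libraries sat well under the lowest control. FLI1, the ETS relative of ERG, had 74.0, 76.6 and 71.6 FPKM with ARV-825 and 107.5, 112.6 and 108 FPKM in control. Its fall was the smallest among the members (-0.56 ± 0.044, adjusted p = 7.42e-07, limma), and 19.8% of all tested genes fell further. For ERG that share was 0.601%, for TAL1 1.04%, for GFI1 1.35%, for GATA2 1.44%, for LMO2 2.87% and for LYL1 5.62%.

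OTX015 at the same dose and time divided the members. ERG, TAL1 and GATA2 again fell by more than 1 on the log2 scale, to 12.1%, 11.7% and 33.5% of control. GFI1, LMO2 and FLI1 fell by far less, to 77%, 85.5% and 90.6%, and LYL1 stood at 109% of control. Limma called 6 of the 7 as lower, against 33.5% of all tested genes called lower and 69.6% called in either direction. Falls of at least 1 on the log2 scale were called for 3 members and 4.96% of all genes. The groups did not overlap in 6 members and in 75.3% of all genes, and the median log2 change was -0.37 over the members and 0.03 over all genes. The 2 drug comparisons share their control libraries.

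Individual libraries with OTX015 had 0.679, 0.769 and 0.798 FPKM of ERG (-2.04 ± 0.08, adjusted p = 6.7e-09, limma), all below the lowest control value of 6.04 FPKM. ERG had the 50th lowest log2 change of 10819 tested genes. TAL1 had 0.487, 0.573 and 0.471 FPKM with OTX015 (-1.83 ± 0.082, adjusted p = 1.85e-08, limma), the 82nd lowest change. GATA2 had 5.37, 5.06 and 5.18 FPKM (-1.41 ± 0.08, adjusted p = 9.3e-08, limma). GFI1 had 53.9, 52.8 and 55.4 FPKM with OTX015, each clearly under its control libraries at about 70.1 to 70.3 FPKM (-0.37 ± 0.041, adjusted p = 1.27e-05, limma).

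The remaining members were near the threshold with OTX015. LMO2 had 35.5, 35.2 and 31.4 FPKM with OTX015, against 38.1, 40.7 and 40.7 FPKM in control (-0.22 ± 0.072, adjusted p = 0.0178, limma). Its call was lost without OTX015 replicate 3 (-0.17, adjusted p = 0.0699), without control replicate 2 (adjusted p = 0.0567) and without control replicate 3 (adjusted p = 0.0574). FLI1 had 95.1, 99.2 and 103 FPKM with OTX015, against 107.5, 112.6 and 108 FPKM in control (-0.14 ± 0.044, adjusted p = 0.0144, limma), a call lost without OTX015 replicate 1 (adjusted p = 0.0653) or control replicate 2 (adjusted p = 0.0582). LYL1 had 194, 194 and 181 FPKM with OTX015, which overlapped the control values of 159, 187 and 178 FPKM. Its change was 0.12 with a 95% interval of -0.02 to 0.26 (adjusted p = 0.108, limma), and it passed without control replicate 2 (0.17, adjusted p = 0.0425).

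**Figure D2:**
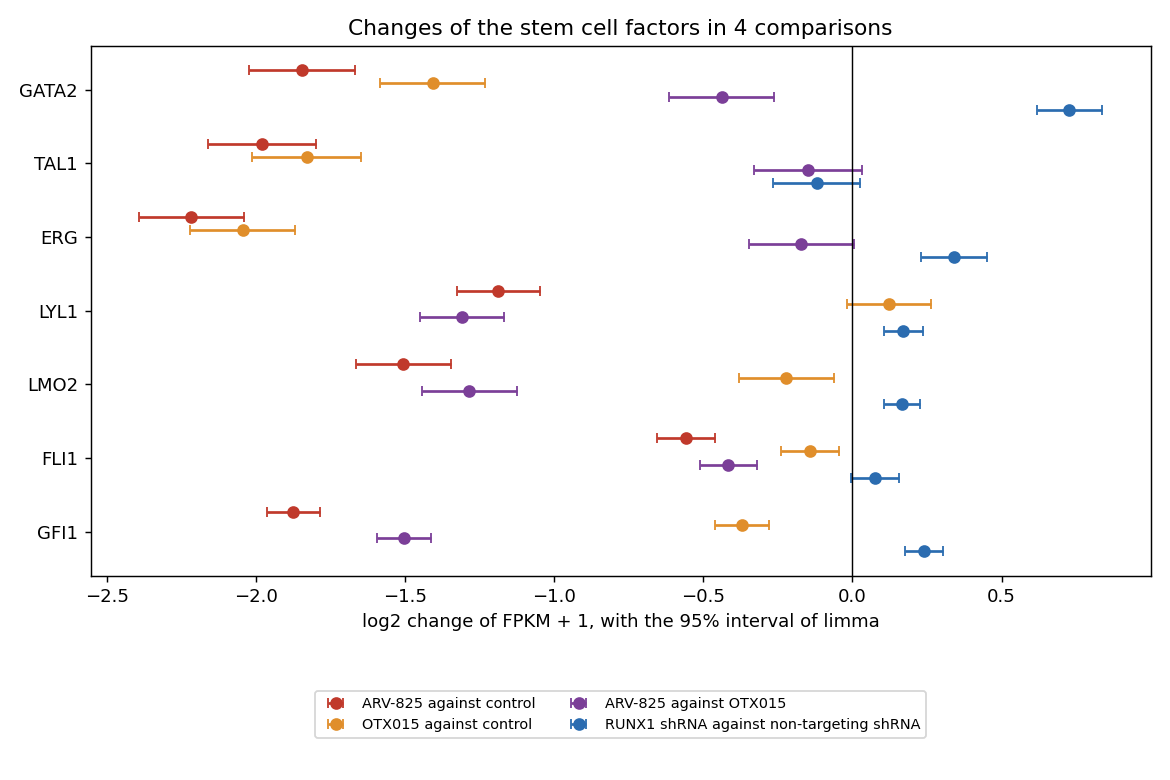
Log2 change of FPKM + 1 of 7 members (rows) in 4 comparisons (colours), with the 95% interval of limma; values left of 0 are lower in the first-named group. The orange OTX015 points of GATA2, TAL1 and ERG lie beyond -1, and those of LYL1, LMO2, FLI1 and GFI1 lie between -0.37 and 0.12.

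The degrader and the inhibitor were then compared directly, at 1000 nM and 4 h each. ARV-825 contains OTX015's BET-binding part together with a linker and a cereblon ligand. GFI1, LYL1 and LMO2 were lower with ARV-825 than with OTX015 by more than 1 on the log2 scale, at 34.1%, 40.1% and 39.4% of the OTX015 level. GFI1 (-1.50 ± 0.041, adjusted p = 4.69e-09), LYL1 (-1.31 ± 0.063, adjusted p = 4.45e-07) and LMO2 (-1.28 ± 0.072, adjusted p = 8.5e-07) had the 19th, 32nd and 38th lowest changes of 10819 genes in this limma contrast. FLI1 (-0.42 ± 0.044, adjusted p = 2.59e-05) and GATA2 (-0.44 ± 0.08, adjusted p = 0.00086) were also lower, at 74.7% and 68.8%. For TAL1 and ERG no difference passed: TAL1 stood at 71.4% of the OTX015 level (-0.15, 95% interval -0.33 to 0.03, adjusted p = 0.142) and ERG at 74% (-0.17, -0.35 to 0.004, adjusted p = 0.0862), percentages close to those of FLI1 and GATA2.

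Of the 7 detected members 5 were called lower with ARV-825 than with OTX015, against 33.4% of all tested genes called lower and 58.1% called in either direction. The falls of at least 1 were 3 among the members and 1.05% among all genes. No member was called higher, against 24.7% of all genes, or 0.841% by at least 1. The groups did not overlap in 6 members, ERG included, and in 62% of all genes. Of the 2 members not called, ERG passed the threshold with a pseudocount of 0.1 (-0.39, adjusted p = 0.0429) and with limma without a mean-variance trend (adjusted p = 0.0355). TAL1 changed by -0.42 with that pseudocount, and the change did not pass (adjusted p = 0.072). Without ARV-825 replicate 3 both passed, ERG at -0.22 (adjusted p = 0.0449) and TAL1 at -0.21 (adjusted p = 0.0376). RUNX1, the remaining heptad factor, had 35.9, 38.8 and 34.1 FPKM with ARV-825 and 52.1, 52.3 and 61.3 FPKM with OTX015, which was lower with ARV-825 (-0.59 ± 0.068, adjusted p = 4.56e-05, limma). In control RUNX1 had 61.7, 63.3 and 59.1 FPKM, so that it fell with ARV-825 (-0.75, adjusted p = 2.38e-06, limma), while with OTX015 the change was -0.15 (adjusted p = 0.0668) and passed without OTX015 replicate 3 (-0.23, adjusted p = 0.00566).

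Ratios between pairs of members were also taken within each library. ERG stood at 0.75% ± 0.15 of the FLI1 level with ARV-825, at 0.754% ± 0.0347 with OTX015 and at 5.68% ± 0.344 in control (SD, n = 3). TAL1 stood at 0.476% ± 0.124 of the LYL1 level with ARV-825, 0.269% ± 0.023 with OTX015 and 2.51% ± 0.225 in control. GFI1 stood at 24.9% ± 1.71 of the FLI1 level with ARV-825, 54.5% ± 1.85 with OTX015 and 64.2% ± 1.63 in control. The summed FPKM of all members was 384 ± 5.73 with OTX015. GATA2 stood at 4.72% ± 0.433 of the LYL1 level with ARV-825, 2.74% ± 0.135 with OTX015 and 8.91% ± 1.08 in control.

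**Figure D3:**
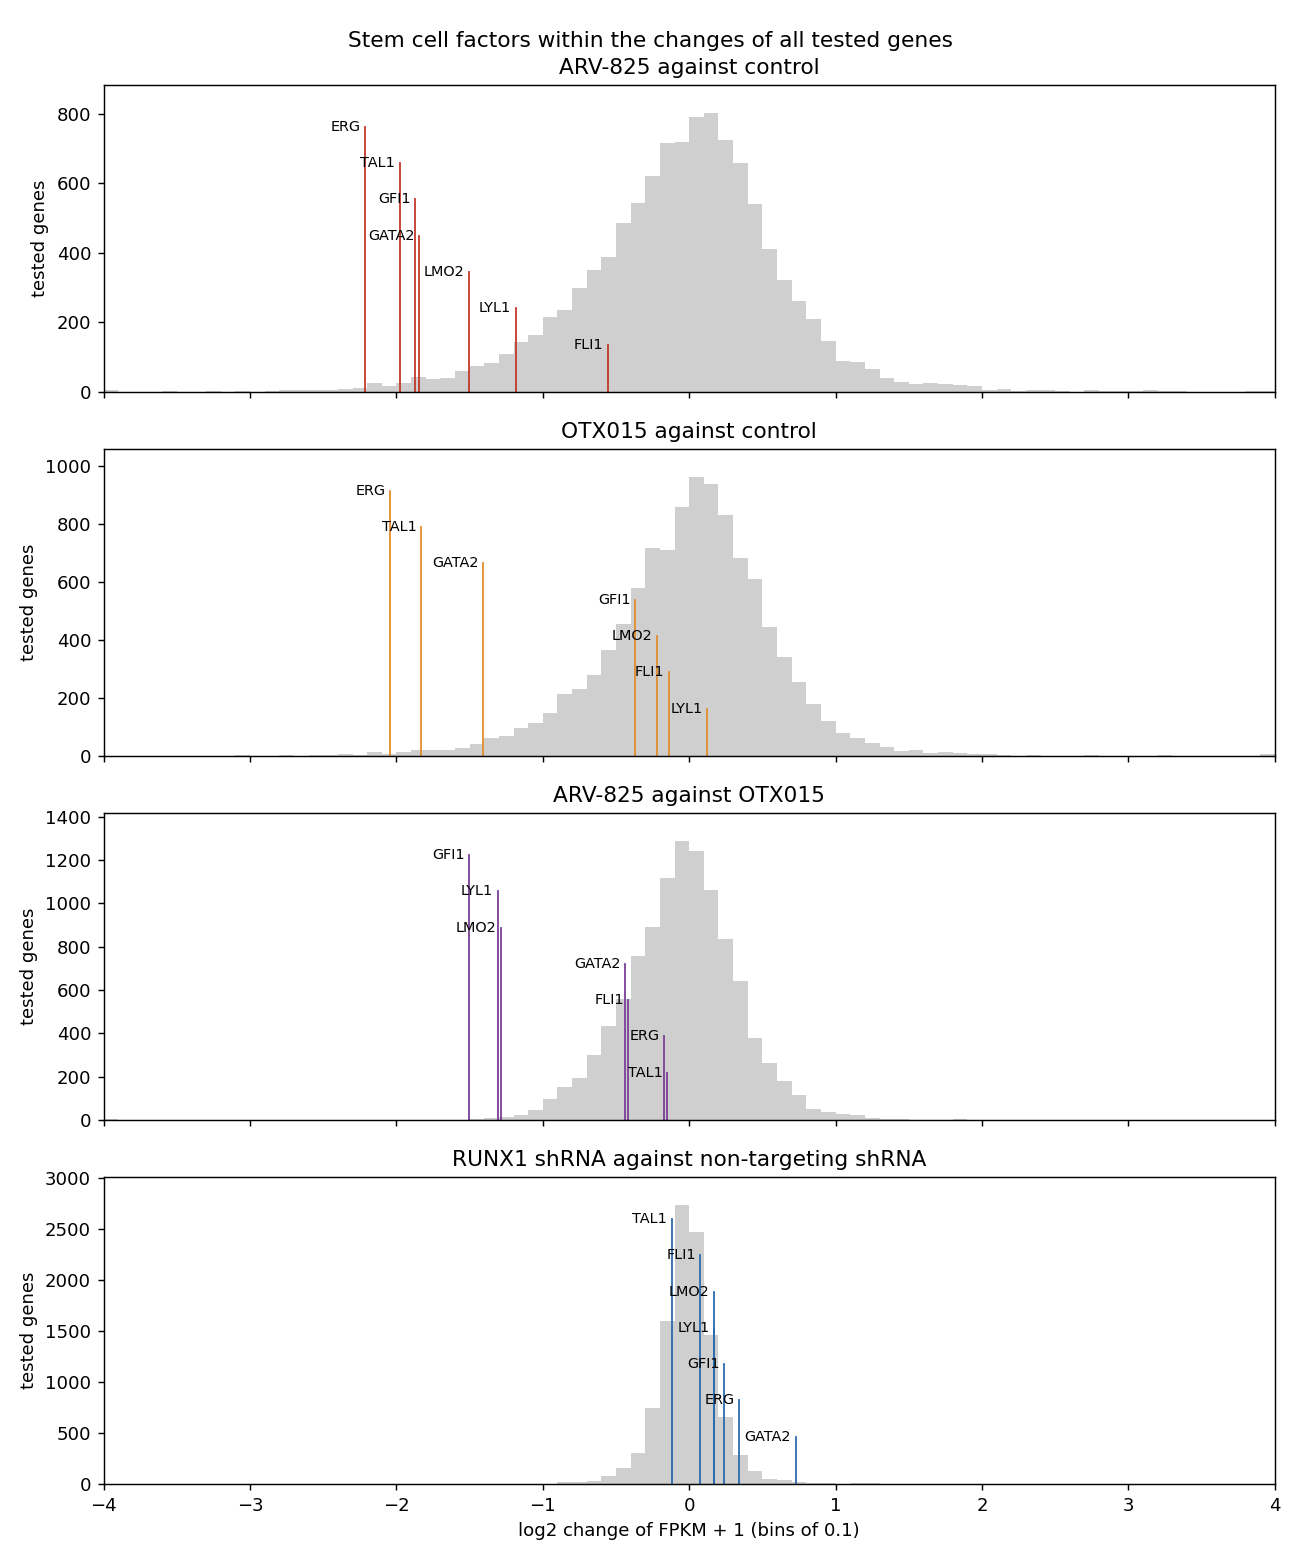
Histograms of the log2 change of FPKM + 1 of all tested genes (grey, bins of 0.1, genes beyond 4 in the outermost bins) in 4 comparisons, with the 7 detected members as coloured lines whose heights carry no value. All members but FLI1 lie left of -1 with ARV-825, ERG, TAL1 and GATA2 did so with OTX015, and all but TAL1 lie right of 0 with RUNX1 shRNA.

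In the RUNX1 shRNA experiment the targeted gene was checked first. RUNX1 had 37.2, 42.9 and 36.0 FPKM with RUNX1 shRNA, against 69.8, 72.2 and 69.8 FPKM with non-targeting shRNA, or 54.8% of that level (-0.85 ± 0.059, adjusted p = 3.71e-05, limma). RUNX3, which the titles of these libraries name, averaged 28.4 ± 0.771 FPKM with RUNX1 shRNA and 27.0 ± 1.8 FPKM with non-targeting shRNA (SD, n = 3 each, adjusted p = 0.341, limma).

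With less RUNX1, 5 of the 7 detected members rose and none was called lower. GATA2 rose to 171% of its level with non-targeting shRNA, ERG to 128%, GFI1 to 118%, LYL1 to 113% and LMO2 to 112%. Among all tested genes 13.5% were called higher, 27.4% were called in either direction, and the groups did not overlap in 44.1%, as they did not in 6 members. A rise of at least 1 was called for 0 members and 0.458% of all genes. The median log2 change was 0.17 over the members and -0.01 over all genes. The summed FPKM of the members was 543 ± 4.0 with RUNX1 shRNA and 478 ± 6.41 with non-targeting shRNA (SD, n = 3 each).

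GATA2 had 22.9, 21.3 and 23.5 FPKM with RUNX1 shRNA, against 13.6, 13.2 and 12.9 FPKM with non-targeting shRNA. Every RUNX1 shRNA library stood well above every non-targeting one (0.73 ± 0.048, adjusted p = 3.24e-05, limma), and the change was the 83rd highest of 10925 genes. ERG had 22.1, 21.7 and 21.1 FPKM with RUNX1 shRNA and 15.9, 17.1 and 17.7 FPKM with non-targeting shRNA (0.34 ± 0.049, adjusted p = 0.00159, limma). GFI1 had 87.1, 88.1 and 84.0 FPKM with RUNX1 shRNA and 73.5, 72.6 and 73.1 FPKM with non-targeting shRNA (0.24 ± 0.028, adjusted p = 0.000601, limma). These groups, too, were fully apart.

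The rises of LYL1 and LMO2 were small and even across libraries. LYL1 had 210.2, 214 and 212 FPKM with RUNX1 shRNA and 188, 195 and 182 FPKM with non-targeting shRNA (0.17 ± 0.029, adjusted p = 0.00356, limma). LMO2 had 60.8, 61.7 and 61.9 FPKM with RUNX1 shRNA, against 54.9, 54.5 and 54.5 FPKM with non-targeting shRNA (0.17 ± 0.026, adjusted p = 0.00241, limma). FLI1 had 127.9, 131.9 and 135.4 FPKM with RUNX1 shRNA, which overlapped 130.3, 121 and 123.5 FPKM with non-targeting shRNA (0.08, 95% interval -0.003 to 0.16, adjusted p = 0.139, limma). TAL1, whose downstream window holds TGTGGT 3 times, had 6.91, 6.35 and 7.28 FPKM with RUNX1 shRNA and 7.29, 7.81 and 7.46 FPKM with non-targeting shRNA. Its groups just failed to overlap, and its change did not pass (-0.12, 95% interval -0.27 to 0.03, adjusted p = 0.199, limma). GFI1, with 1 such motif, was among the genes that rose. GATA2, LYL1 and ERG rose as well, with no TGTGGT in their windows, and LMO2 had no window. A part of the motif in these changes was not tested.

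By the Euclidean distance over 3 log2 changes (ARV-825 against control, OTX015 against control, RUNX1 shRNA against non-targeting shRNA) among 10573 genes tested in both fits, the closest genes outside the set were identified for each member. ZMYND8 (distance 0.204) was closest to GATA2, with changes of -1.88, -1.47 and 0.54. NOP16 (0.101) and FOSL1 (0.132) were closest to TAL1, and ASB2 (0.134) and MRVI1 (0.256) to ERG. SLC38A2 (0.0594) and AEBP2 (0.108) were closest to LYL1, and LPAR6 (0.0973) and PTCH1 (0.141) to LMO2. CRTC1 (0.0407) and HSPBAP1 (0.0433) were closest to FLI1, and SLITRK4 (0.239) and KIF21B (0.276) to GFI1.

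Partners of the members moved both ways, as did all tested genes. Of all genes 35.8% were called higher and 38.4% lower with ARV-825, and 36.1% and 33.5% with OTX015. With RUNX1 shRNA these shares were 13.5% and 13.8%. No gene list was tested against them. The lists also share genes, among them KDM1A, ID1, ID2 and MEIS1, which count in each list that holds them. Of 14 tested partners of TAL1 and LMO2, 3 rose and 7 fell with ARV-825 (median -0.39). With OTX015 4 rose and 7 fell (median -0.19), and with RUNX1 shRNA 2 rose and 4 fell (median -0.01). The partners include RUNX1 itself, the target of the shRNA, whose fall (-0.85) is among those 4. LDB1, the adaptor that binds LMO2, averaged 18.9 FPKM with ARV-825, 18.7 with OTX015 and 19.6 in control, with no call. CBFA2T3 (ETO2), a corepressor of the complex, fell by 0.89 with ARV-825 and by 1.60 with OTX015 on the log2 scale, while its relative CBFA2T2 rose by 0.80 and 1.11. The E protein gene TCF4 averaged 12.5 ± 4.51 FPKM with ARV-825, 6.79 ± 2.57 with OTX015 and 17.6 ± 1.33 in control (SD, n = 3), a wide spread with either drug. It was lower with OTX015 than in control (-1.31) and higher with ARV-825 than with OTX015 (0.80). Its change with ARV-825 against control did not pass (-0.51 ± 0.24, adjusted p = 0.0775, limma). SSBP3, a cofactor of LDB1, rose by 0.63 with ARV-825 and 0.88 with OTX015, and fell by 0.40 on the log2 scale with RUNX1 shRNA. Its relative SSBP4 fell by 0.96 with ARV-825. CBFB, the RUNX partner, rose by 0.20 with RUNX1 shRNA. Of the ID genes, whose products block E proteins, 2 of 4 were tested. ID1 rose with ARV-825 (0.25), with OTX015 (0.91) and with RUNX1 shRNA (0.28), and ID2 fell by 0.66 on the log2 scale with ARV-825 and rose with OTX015 (0.24).

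Corepressors of GFI1 moved both ways too, as did all tested genes. Of 12, 5 rose and 5 fell with ARV-825 (median 0.04), and 7 rose and 4 fell with OTX015 (0.23). With RUNX1 shRNA 2 rose and 1 fell (0.01). No corepressor was called in that last comparison without RUNX1 shRNA replicate 1, non-targeting replicate 1 or non-targeting replicate 3, and 1 was called without non-targeting replicate 2. The methyltransferase gene EHMT2 fell by 0.73 on the log2 scale with ARV-825, GSE1 by 0.90 with OTX015, and the deacetylase gene HDAC1 rose by 0.41 with ARV-825. Among genes reported as GFI1 targets, largely from mouse work, 3 rose and 5 fell of 9 with ARV-825 (median -0.21), and 4 rose and 3 fell with OTX015 (0.24). Of 8 tested with RUNX1 shRNA, 4 rose and 0 were called lower (0.17), and 2 were called without RUNX1 shRNA replicate 3. CDKN1A, the cell cycle inhibitor p21, rose by 1.90 with ARV-825 and 1.02 with OTX015, whereas the macrophage receptor gene CSF1R changed by -1.44 and -2.19 and the granulocyte factor CEBPE by -2.26 and -1.98. With RUNX1 shRNA the homeobox gene MEIS1 (0.55) and the cytokine gene CSF1 (0.39) rose.

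Other ETS genes moved both ways too, as did all tested genes. With either drug, the calls among stem and progenitor genes were mostly falls. Of 14 other ETS genes tested in the drug fit, 2 rose and 6 fell with ARV-825 (median -0.10) and 6 rose and 5 fell with OTX015 (0.10). SPI1, the myeloid ETS factor, changed by -1.78 and -1.75, ELK3 by -1.44 and -1.15, and ETV3 by 0.75 and 0.66. With RUNX1 shRNA 5 of 15 ETS genes rose, led by ELK4 (0.63), and 4 fell, led by SPIB (-0.40) (median -0.004). LMO1, the relative of LMO2, averaged 1.12 ± 0.0532 FPKM with ARV-825, 1.28 ± 0.247 FPKM with OTX015 and 8.11 ± 0.343 FPKM in control. It fell with both drugs (-2.10 with ARV-825 and -2.0 with OTX015), and LMO4 was not called against control. Of 10 stem and progenitor genes tested, 6 fell and 0 were called higher with ARV-825 (median -0.21), 6 fell and 1 rose with OTX015 (-0.40), and 3 fell and 4 rose with RUNX1 shRNA (0.04). These 7 calls became 4 without RUNX1 shRNA replicate 3 or non-targeting replicate 2. NFE2 (-3.04) and MYB (-2.74) led the falls with ARV-825. CD34, the surface marker of progenitors, averaged 29.8 ± 0.63 FPKM with RUNX1 shRNA and 15.3 ± 0.559 FPKM with non-targeting shRNA (0.91 ± 0.041, adjusted p = 4.08e-06, limma).

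**Figure D4:**
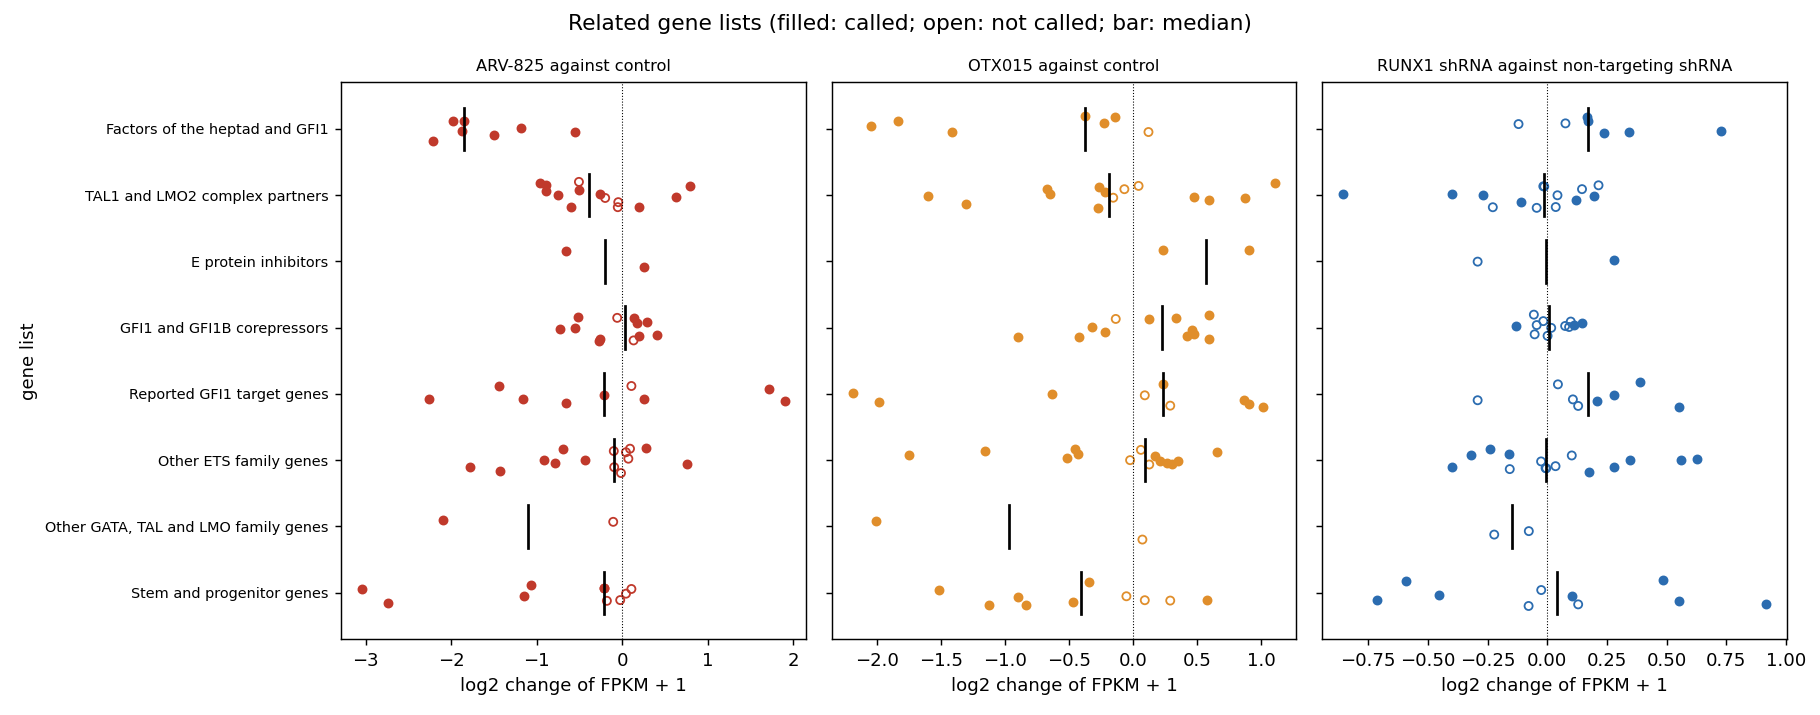
Log2 change of FPKM + 1 (each panel with its own axis range) of the 7 detected members (top row) and of the tested genes of 7 related lists in 3 comparisons; filled points were called at an adjusted p under 0.05, open points were not, and bars are medians. The members' median is the lowest of the rows with ARV-825 (-1.85), while partner and corepressor lists lie on both sides of 0.

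Without a stated strand protocol, reads of GATA2, TAL1, LMO2 and FLI1 cannot be told apart from those of the antisense genes that overlap them in the GENCODE annotation.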

How the data were processed

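Gene expression was measured by RNA-seq in 15 libraries of 5 groups. The authors deposited 1 table of 9 drug libraries and 1 of 6 shRNA libraries, read here as FPKM that the authors had quantile normalized within each table. Libraries of a table still differ in sum and median, so the normalization did not make these rows equal, and how it was done is unknown. The unit and the normalization are inferred from the table names, the values and TopHat2 2.0, Cufflinks 2.0 and hg19, listed per the submitters' processing notes. Gene annotation and strand setting are not given in the sources used here. Rows numbered 19620 per table, and 16 pseudoautosomal copies were left out. Depth in reads is unknown, so no counting interval is given. Groups follow the treatment labels, although library titles of 1 group say Runx3 where its treatment label says RUNX1. The series calls the replicates biological and names no separate cultures, so the spread behind each p-value may be partly technical.

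Values were analysed as log2(FPKM + 1). Genes averaging 1 FPKM or more in an experiment entered limma 3.58.1 under R 4.3.3 (two-sided, variances moderated with a trend on the mean). P-values were adjusted by Benjamini-Hochberg over all tested genes and called at 0.05. The 9 drug libraries shared 1 fit. The procedure was tested on simulated data. Members, lists and tests were chosen with earlier results of these data known. Named outside the members are RUNX1 and RUNX3 (added because titles name it). From the lists, LDB1 and LMO4 (added after seeing values) and genes among the 2 largest called changes in each direction are named. Named markers are LYZ, some at 0, and those of other cells averaging 1 FPKM or more in the drug libraries. Of the genes closest in pattern to a member, 1 is not reported here. Alternatives covered the pseudocount, the filter, rescaling, the trend, the fit's groups, a replicate block and leaving out each library.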

Additional observations from a re-analysis of the deposited data

How the results depend on the processing

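The number of members called kept within 1.5 times its value under every alternative. It was 5 to 7 after ARV-825, 4 to 6 after OTX015, 5 to 7 for ARV-825 against OTX015 and 5 with RUNX1 shRNA. For each drug against control the lowest value arose where a mean of at least 5 FPKM leaves TAL1 and ERG untested. For ARV-825 against OTX015 the lowest value, 5, is the main result. Leaving out 1 library gave 7492 to 7900, 6895 to 7176, 5573 to 6147 and 1997 to 2840 called genes, against 8025, 7528, 6282 and 2988. No member's direction turned when members and comparisons were refitted under each alternative. Of these refits 339 kept their side of the threshold, 5 lost a call and 5 gained one, which are those named for LMO2, FLI1, LYL1, ERG and TAL1. Numbers in the titles did not pair libraries (correlations of deviations between same-numbered libraries -0.321 to 0.0613). With the replicate block the members called were 7, 6, 5 and 5, and 7771, 7262, 5884 and 2585 genes were called. With RUNX1 shRNA the 3 called GFI1 corepressors became 0 under the block and 1 without the trend, and the 4 GFI1 targets became 1 without the filter. ID1 was not called there without the filter. With ARV-825, 1 of the 2 called ID genes lost its call without control replicate 2. Median-ratio rescaling moved the median of all genes by less than 0.1 in each comparison. It is relative too, so it cannot show a change shared by most genes. The depth is unknown, which limits values near 0, such as those of TAL1 and ERG with either drug and of GFI1B.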
